A study of Mus musculus with 10 samples.

Results

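The genes described here are 40 genes of mitosis, the step in which a cell condenses its duplicated chromosomes, attaches them to a spindle, separates them and divides. They were chosen as a fixed list of symbols, with earlier results of these data known. All 40 were found among the 35087 gene symbols of the deposited tables. Transcripts were measured in granulosa cells, the somatic cells that surround the oocyte in an ovarian follicle, cut by laser from ovaries of 3-week-old wild-type C57B6/J females. The NAC group (4 libraries) came from mice given N-acetyl-l-cysteine, an antioxidant and cysteine donor, intraperitoneally at 150 mg/kg on 3 consecutive days. The saline group (6 libraries) came from mice of the same age, strain and sex that received normal saline. All ovaries were taken on day 4 after the first injection, and the labels give all 10 libraries the same batch. Which animal or follicle stage a library came from is not in the labels. Each library therefore counted as a replicate, and p-values reflect variation between captures that may include several from the same mouse.

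Granulosa cells are the main dividing cells of a growing follicle, and their proliferation is a mark of follicle growth. Cyclin-dependent kinase 1 with its cyclins starts mitosis, and the Aurora and Polo kinases build the spindle and the kinetochore, the protein plate through which microtubules hold a chromosome. The spindle checkpoint holds back the anaphase-promoting complex until every chromosome is attached. When the complex is released, it marks cyclin B and securin for destruction, and the sister chromatids come apart. Most of these genes are transcribed late in the cell cycle, through promoter elements bound by the MuvB complex (the cell cycle genes homology region, CHR) and by NF-Y (the CCAAT box).

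Promoters are shown for 5 of the 7 members whose NAC and saline values did not overlap, to let their late cell cycle elements be seen. Of the other 2, Kif2c held a CHR and no CCAAT and is not printed, and Aurkb was not matched. RefSeq promoters (GRCm38.p6), running from 250 bases before to 50 bases after each annotated start, were matched by symbol for 35 of the 40 members. Printed are Cdc20 (chr4:118437294-118437593, minus strand), Aurka (chr2:172370521-172370820, minus strand), Kpna2 (chr11:106999476-106999775, minus strand), Fam83d (chr2:158767849-158768148, plus strand) and Ndc80 (chr17:71526808-71527107, minus strand). Capitals mark CHR (TTTGAA, or TTCAAA where it lies on the other strand) and CCAAT.
Cdc20: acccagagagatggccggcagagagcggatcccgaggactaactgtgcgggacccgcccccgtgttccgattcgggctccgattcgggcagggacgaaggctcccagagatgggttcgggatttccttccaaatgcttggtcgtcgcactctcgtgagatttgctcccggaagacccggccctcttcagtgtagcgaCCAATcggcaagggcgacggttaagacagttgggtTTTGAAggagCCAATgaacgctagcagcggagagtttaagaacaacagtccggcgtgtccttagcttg
Aurka: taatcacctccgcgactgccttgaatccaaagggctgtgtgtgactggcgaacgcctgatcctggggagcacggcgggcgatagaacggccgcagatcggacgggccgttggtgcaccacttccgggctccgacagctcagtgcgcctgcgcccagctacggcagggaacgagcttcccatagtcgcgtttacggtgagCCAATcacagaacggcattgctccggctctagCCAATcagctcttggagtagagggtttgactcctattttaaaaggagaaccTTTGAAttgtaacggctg
Kpna2: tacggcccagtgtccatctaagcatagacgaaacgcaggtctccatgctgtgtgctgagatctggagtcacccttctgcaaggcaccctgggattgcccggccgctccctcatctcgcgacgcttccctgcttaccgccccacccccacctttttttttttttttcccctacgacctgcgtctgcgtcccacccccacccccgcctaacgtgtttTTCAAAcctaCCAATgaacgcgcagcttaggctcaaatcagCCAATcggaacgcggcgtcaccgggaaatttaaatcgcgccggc
Fam83d: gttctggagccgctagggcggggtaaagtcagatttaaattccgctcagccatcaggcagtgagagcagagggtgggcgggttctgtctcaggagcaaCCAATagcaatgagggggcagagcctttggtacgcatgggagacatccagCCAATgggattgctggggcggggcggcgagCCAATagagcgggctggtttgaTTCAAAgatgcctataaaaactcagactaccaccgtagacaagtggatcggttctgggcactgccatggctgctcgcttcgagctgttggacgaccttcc
Ndc80: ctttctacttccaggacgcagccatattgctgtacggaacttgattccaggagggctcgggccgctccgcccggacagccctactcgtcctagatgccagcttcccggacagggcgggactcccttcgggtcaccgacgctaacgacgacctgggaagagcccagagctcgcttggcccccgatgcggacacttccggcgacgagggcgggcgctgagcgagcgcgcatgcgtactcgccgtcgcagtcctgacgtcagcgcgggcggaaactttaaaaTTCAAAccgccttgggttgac
In Cdc20 the CHR began 18 bases before the start, between the CCAAT boxes at 53 and 8 bases before it. In Aurka it lay after the start, downstream of CCAAT boxes at 51 and 19 bases before the start. In Kpna2 it began 35 bases before the start, 10 bases ahead of the nearer CCAAT box, and in Fam83d it lay 50 bases before the start, downstream of 3 CCAAT boxes. Ndc80 held a CHR within its first transcribed bases and no CCAAT in this window. Both strands were searched for both sets of letters, and the motifs overlapped each other in 1 member promoter. TTTGAA occurred in 27 of the 35 member genes (77.1%), against 20.2% of all 27025 genes with a promoter in the table. CCAAT occurred in 27 of 35 (77.1%), against 41.1% of all genes, and both occurred in 24 of 35 (68.6%), against 7.97%. In 25 member genes a CHR lay within 50 bases of the start. A match of these letters is a description of the window and not evidence of binding. Among the 29 members with a promoter whose groups overlapped in level, 21 held CHR and 23 held CCAAT, so the elements were not limited to the members shown.

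The libraries held 116461 to 2488408 estimated reads. NAC 3 was the shallowest, where a single read corresponds to 7.95 CPM (counts per 1e+06 reads, with TMM scaling). NAC 2 and NAC 3 had a read in 10434 and 10266 genes, against 14022 to 16165 in the other libraries. Markers of granulosa cells were present throughout, with summed levels of 11434 to 27323 CPM over 15 markers in NAC libraries and 17084 to 46483 CPM in saline libraries. The lower saline values belonged to saline 1 and saline 2 (17084 and 19760 CPM), and the other 4 saline libraries lay at 42402 CPM or above. Summed oocyte markers (19 genes) lay at 373 to 2416 CPM in NAC libraries and at 1.32 to 2688 CPM in saline libraries, with 1 to 7 of them at 0 reads in NAC libraries and 0 to 18 in saline libraries. Theca and stroma markers (15 genes) summed to 223 to 5343 CPM in NAC libraries and 670 to 3785 CPM in saline libraries, and 8 endothelial markers to 47.7 to 205 CPM in NAC and 24.2 to 76.4 CPM in saline. Immune markers (9 genes) summed to 0 to 97.7 CPM in NAC and 0.896 to 23.4 CPM in saline, and 8 surface epithelium markers to 97.7 to 724 CPM in NAC and 188 to 350 CPM in saline. NAC 2 held the lowest granulosa sum of all libraries (11434 CPM). It also held the highest theca and stroma (5343 CPM), endothelial (205 CPM) and immune (97.7 CPM) sums. The part of these differences in the results below was not tested. In such bulk samples, fewer dividing cells and less RNA per dividing cell cannot be told apart.

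The mitosis genes as a whole overlapped between the 2 groups in summed level, while single members had fold changes in opposite directions. Their summed level was 5233, 6970, 6300 and 5090 CPM in NAC 1 to 4, and ranged in saline from 5170 to 8203 CPM. The groups overlapped widely, with means of 5898 ± 895 CPM in NAC (SD, n = 4) and 6489 ± 1194 CPM in saline (SD, n = 6). The NAC values lay below all saline values for the anaphase activator Cdc20, the kinases Aurka and Aurkb, the spindle genes Fam83d and Kif2c and the nuclear import receptor Kpna2, and above all saline values for the kinetochore gene Ndc80. The highest fold change was that of the securin gene Pttg1, whose groups overlapped. All 40 members passed the filter for low counts. None was called at an adjusted p under 0.05 by the edgeR quasi-likelihood test, against 8 of the 10947 genes tested (0.0731%), and the smallest adjusted p of a member was 0.0968. The median log2 fold change (NAC over saline) of the 40 was -0.11, with 18 positive and 22 negative, and that of all genes tested was 0.02.

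At an unadjusted p under 0.05, 9 members were lower in NAC, where 8.33% of all tested genes were, and 5 were higher, where 7.86% of all were. The lower ones were Cdc20, Ube2c, Plk1, Aurka, Aurkb, Cenpa, Kif2c, Fam83d and Kpna2, and the higher ones Pttg1, Mad2l1, Ndc80, Cenpe and Mki67. The NAC and saline values did not overlap for 6 members that were lower in NAC (3.58% of all tested genes behaved so) and for 1 that was higher (1.87% of all). Because the list was chosen with earlier results of these data known, these shares do not measure an excess in an independent list. With no scaling beyond library size, the median of all genes moved from 0.02 to 0.19, and 5 members were then lower and 5 higher at this unadjusted p. Of the 10947 genes tested, 500 were lower and 1236 higher with that scaling. Under that scaling Cdc20, Fam83d and Kpna2 still did not overlap on the lower side, nor on the TPM scale, and Ndc80 did not overlap on the higher side on either. Mad2l1 did not overlap on the higher side with library size alone, but did on the TPM scale. The shares of all tested genes without overlap were taken with TMM scaling only. The separations on the other scales therefore have no background share beside them. DESeq2 called 7 of the 40 at an adjusted p under 0.05: Cdc20 (0.00884), Kpna2 (0.0103), Ndc80 (0.0148), Aurka (0.0253), Pttg1 (0.0308), Fam83d (0.0337) and Aurkb (0.0432). It also called 433 of all genes. Without NAC 2 and NAC 3, 9 members were lower and 3 higher at an unadjusted edgeR p under 0.05. Of the 12216 genes then tested, 1181 were lower and 846 higher. The 9 lower members were not all the same ones: 5 kinases and cyclins were lower instead of 3, and 0 kinetochore genes instead of 1. Leaving out NAC 2, saline 3, saline 4 or saline 5 alone also brought the count of higher members to 3. Leaving out NAC 1 or NAC 2 brought 1 member past the adjusted threshold, while 58 and 38 of all tested genes passed it, against 8 with all libraries.

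**Figure D1:**
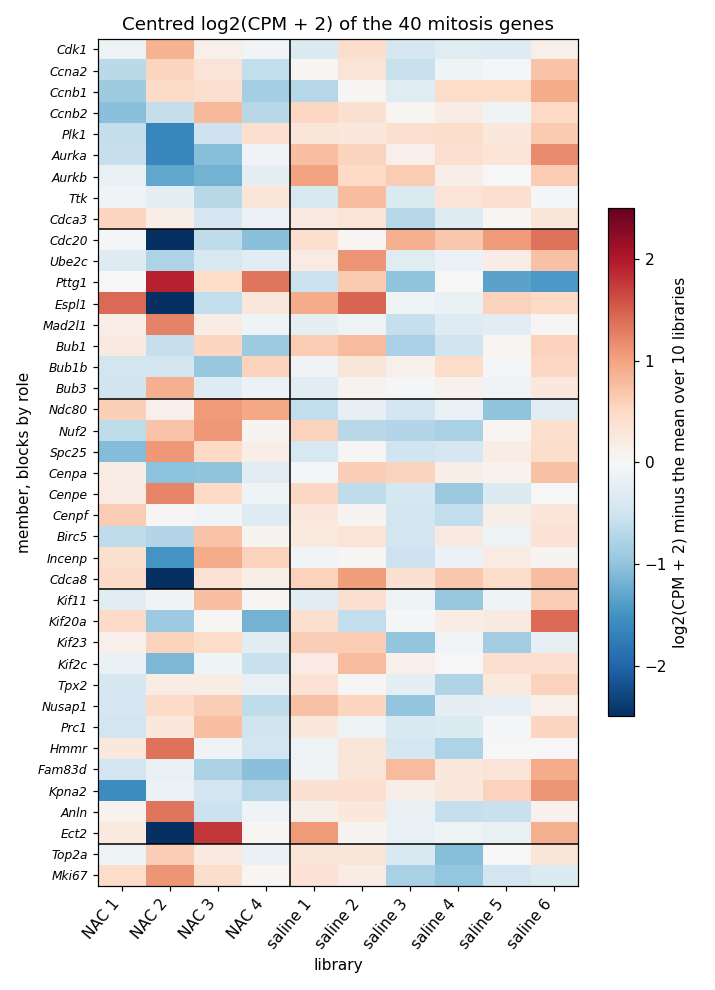
Level of each of the 40 mitosis genes (rows, blocks by role) in each library (columns, NAC left of saline), as log2(CPM + 2) minus the mean over the 10 libraries, with colours clipped at 2.5. Aurka, Cdc20, Fam83d and Kpna2 are lower across the NAC columns and Ndc80 is higher, while NAC 2 holds many of the most extreme cells in both directions.

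Libraries differed more within NAC than within saline. NAC 2 was the highest of the 10 libraries in 10 members and the lowest in 12, as it also was in 24.3% and 34.0% of all tested genes. Saline 6 was the highest in 10 members and NAC 3 in 8. The coefficient of variation had a median over members of 44.7% in NAC and 27.5% in saline. NAC 2 and NAC 3 held 509945 and 116461 reads, against 1340324 or more in saline libraries. The part of depth in this spread was not tested. Reads for Espl1 and Ect2 were absent from NAC 2, where 3 reads correspond to 6.10 CPM, and every other library held reads for all 40 members. Per transcript length, the most abundant member in NAC was Cdk1, at 468 ± 90.3 TPM, followed by Ube2c at 411 ± 96.6 and Pttg1 at 320 ± 176 TPM. In saline the order was Ube2c at 679 ± 315, Cdk1 at 379 ± 131 and Kpna2 at 285 ± 72.8 TPM, and the ranges of mean ± SD overlapped between Ube2c and Cdk1 and between Cdk1 and Kpna2. The least abundant member in both groups was the spindle motor Kif11, at 9.36 ± 2.99 TPM in NAC and 8.25 ± 3.30 TPM in saline.

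Of the 9 kinases, cyclins and cyclin regulators, 7 had a negative and 2 a positive fold change, with a median of -0.36, and 3 were lower at an unadjusted p under 0.05. Their summed level was 1054 to 1540 CPM in NAC libraries and 1257 to 2042 CPM in saline libraries. Aurka (chromosome 2, 172356190-172370535, GRCm38), which matures centrosomes and drives spindle assembly, had 57.3, 26.4, 39.8 and 81.2 CPM in NAC 1 to 4, against 93.6 to 197 CPM in saline, with a median of 121 CPM. Every NAC value lay below every saline value, although NAC 2 and NAC 3 rested on 13 and 5 reads. The log2 fold change was -1.27 (SE 0.34), with an edgeR adjusted p of 0.104. Aurkb (chromosome 11, 69045647-69051664), the kinase of the chromosomal passenger complex that corrects faulty attachments, had 80.6, 36.6, 39.8 and 77.5 CPM in NAC 1 to 4, against 91.7 to 187 CPM in saline, with a median of 138 CPM. These groups also did not overlap in CPM, but for both Aurora kinases they did on the TPM scale and with library size alone. For Aurkb, NAC 2 and NAC 3 rested on 18 and 5 reads. The log2 fold change of Aurkb was -1.10 (SE 0.32, edgeR adjusted p = 0.124), and limma on log2(TPM + 1) gave -0.54 for Aurkb and -1.31 for Aurka.

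Plk1, the Polo kinase of mitotic entry and spindle building, had 97.6, 46.8, 103 and 197 CPM in NAC 1 to 4, against 178 to 236 CPM in saline, with a median of 189 CPM. NAC 4 lay inside the saline range and the other NAC libraries below it, and the log2 fold change was -0.77 (SE 0.33, edgeR adjusted p = 0.258). It was -0.51 without NAC 2 and -1.35 without NAC 4. Cdk1, the kinase that starts mitosis, did not share this direction. It had 320, 639, 382 and 329 CPM in NAC 1 to 4, against 259 to 470 CPM in saline, with a median of 279 CPM. Only NAC 2 exceeded the saline range, and the log2 fold change of 0.37 (SE 0.28, edgeR adjusted p = 0.523) was 0.07 without NAC 2 and -0.02 without NAC 2 and NAC 3. The A-type cyclin Ccna2 had 115, 269, 231 and 120 CPM in NAC 1 to 4, against 125 to 304 CPM in saline, with a median of 185 CPM. The B-type cyclin Ccnb2 had 97.6, 134, 358 and 124 CPM in NAC 1 to 4, against 189 to 291 CPM in saline, with a median of 249 CPM. For Ccna2 the groups overlapped, and for Ccnb2 NAC 3 lay above all saline values and the other 3 NAC libraries below them. The log2 fold changes were -0.15 (SE 0.32) for Ccna2 and -0.54 (SE 0.34) for Ccnb2. Without NAC 2 that of Ccna2 was -0.48 and without NAC 3 it was -0.34. Without NAC 3 that of Ccnb2 was -1.10. The remaining members were Ccnb1, the other main B-type cyclin (-0.36), Ttk, the Mps1 kinase that starts checkpoint signalling (-0.26), and Cdca3, a trigger of mitotic entry (0.10), with edgeR adjusted p from 0.648 to 0.889.

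The 8 genes of anaphase control held the lowest and the highest fold change of all members, in proteins that act in sequence on the same step. At an unadjusted p under 0.05, 2 were higher and 2 lower, and the median of the 8 was -0.35. Cdc20 (chromosome 4, 118432901-118437352) activates the anaphase-promoting complex and is the protein the checkpoint holds. It had 207, 30.5, 135 and 102 CPM in NAC 1 to 4, against 219 to 549 CPM in saline, with a median of 366 CPM. All NAC libraries lay below all saline libraries, the nearest being NAC 1 at 207 and saline 2 at 219 CPM. NAC 2 and NAC 3 rested on 15 and 17 reads. The means were 119 ± 73.4 CPM in NAC and 372 ± 118 CPM in saline, and the log2 fold change was -1.63 (SE 0.42, edgeR adjusted p = 0.0968). Without NAC 1 the edgeR adjusted p was 0.0475. Ube2c (chromosome 2, 164769898-164778822), the ubiquitin-conjugating enzyme that works with the complex, had 301, 220, 286 and 308 CPM in NAC 1 to 4, against 305 to 816 CPM in saline, with a median of 432 CPM. NAC 4 just entered the saline range, and the log2 fold change was -0.81 (SE 0.30, edgeR adjusted p = 0.219).

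Pttg1 (chromosome 11, 43420250-43426251) encodes securin, the inhibitor of separase that the complex destroys at anaphase. It had 68.6, 267, 95.4 and 176 CPM in NAC 1 to 4, against 24.3 to 109 CPM in saline, with a median of 39.9 CPM. NAC 2 and NAC 4 lay above all saline libraries, and NAC 1 and NAC 3 lay inside their range. The log2 fold change was 1.59 (SE 0.45, edgeR adjusted p = 0.116). The highest saline values were those of saline 2 and saline 4, which also had the highest oocyte marker sums of the saline group (1063 and 2688 CPM). In NAC 1 to 4 these sums were 373, 517, 1281 and 2416 CPM, and the highest Pttg1 value was that of NAC 2. The part of oocyte RNA in the level of Pttg1 was not tested. With an oocyte score as a covariate the log2 fold change of Pttg1 was 1.30, and without saline 2 and saline 4 it was 2.21 with an edgeR adjusted p of 0.0473.

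The mitotic checkpoint genes did not share a direction. Mad2l1, the checkpoint protein that binds Cdc20, had 118, 250, 119 and 96.5 CPM in NAC 1 to 4, against 69.4 to 108 CPM in saline, with a median of 87.6 CPM. NAC 4 lay inside the saline range and the other 3 above it, and the log2 fold change was 0.73 (SE 0.29, edgeR adjusted p = 0.241) and 0.31 without NAC 2. Bub3, which docks checkpoint proteins on the kinetochore, had 185, 482, 207 and 235 CPM in NAC 1 to 4, against 215 to 313 CPM in saline, with a median of 266 CPM. NAC 1 and NAC 3 lay below the saline range and NAC 2 above it. Its log2 fold change of 0.08 (SE 0.28) rested on NAC 2 and was -0.34 without that library. The kinase Bub1 (-0.40), the checkpoint protein Bub1b (-0.37) and the separase gene Espl1 (-0.33, SE 0.63) had edgeR adjusted p from 0.568 to 0.821. Set within each library, reads of Mad2l1 over reads of Cdc20 gave 0.570, 8.20, 0.882 and 0.948 in NAC 1 to 4, against 0.176 to 0.439 in saline. This ratio was chosen after the values were seen and was not tested. It sets a member higher in NAC over one that was lower, so a difference was built into the choice.

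**Figure D2:**
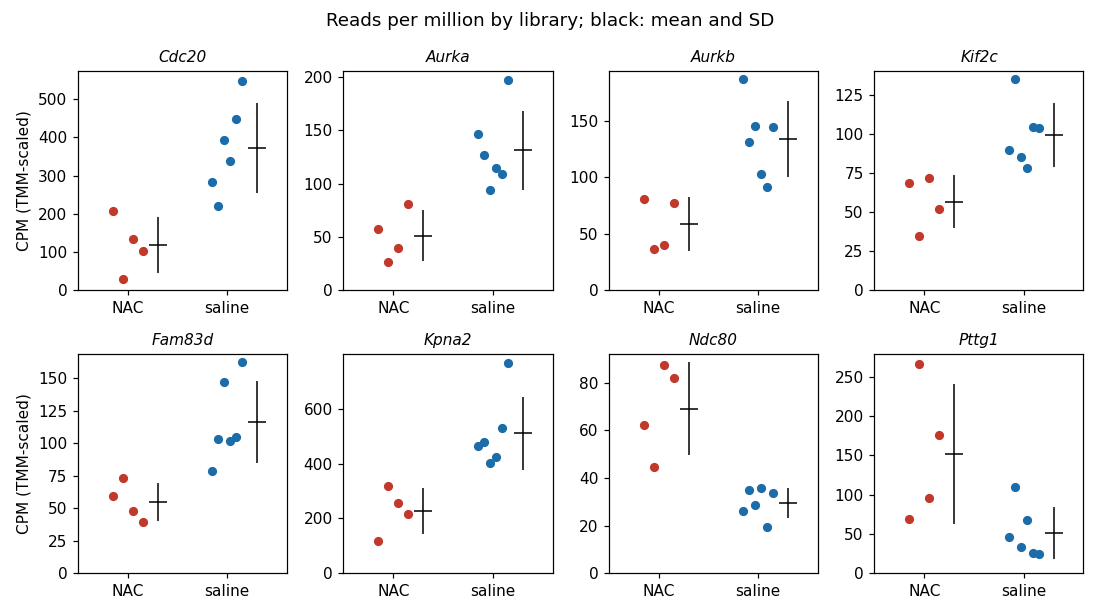
CPM of 8 members in each library, NAC (red, n = 4) left of saline (blue, n = 6), with the mean and SD in black and all axes starting at 0. The first 6 panels (Cdc20, Aurka, Aurkb, Kif2c, Fam83d, Kpna2) show NAC values below every saline value, Ndc80 shows NAC values of 44.8 CPM or more against saline values of 35.7 CPM or less, and Pttg1 shows groups that overlap. With library size alone or on the TPM scale, Aurka, Aurkb and Kif2c overlap.

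Of the 9 centromere and kinetochore genes, 6 had a positive and 3 a negative fold change, with a median of 0.38. Their summed levels were alike in range, with 987 to 1336 CPM in NAC libraries and 922 to 1341 CPM in saline libraries. Ndc80 (chromosome 17, 71496100-71526857), whose protein grips the microtubule end, had 62.2, 44.8, 87.5 and 81.7 CPM in NAC 1 to 4, against 19.4 to 35.7 CPM in saline, with a median of 31.1 CPM. All NAC libraries lay above all saline libraries, with 22 reads in NAC 2 and 11 in NAC 3. The means were 69.1 ± 19.5 CPM in NAC and 29.7 ± 6.31 CPM in saline, and the log2 fold change was 1.20 (SE 0.33, edgeR adjusted p = 0.111). Its complex partners Nuf2 (0.47, SE 0.42) and Spc25 (0.41, SE 0.37) had edgeR adjusted p of 0.597 and 0.592. Their fold changes were -0.02 and -0.08 with offsets for GC content and length, and -0.17 and -0.27 without NAC 2 and NAC 3. Within each library, reads of Ndc80 over reads of Aurka ranged from 1.01 to 2.20 in NAC and from 0.170 to 0.312 in saline, a ratio again chosen after its values were seen. Each gene alone separated the groups, in opposite directions, so this ratio could not overlap and adds no support. It rested on 22 over 13 reads in NAC 2 and 11 over 5 in NAC 3.

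Cenpa, the histone variant that marks the centromere, had 203, 85.4, 87.5 and 144 CPM in NAC 1 to 4, against 174 to 295 CPM in saline, with a median of 230 CPM. NAC 1 lay inside the saline range and the other 3 below it, and the log2 fold change was -0.78 (SE 0.30, edgeR adjusted p = 0.226). Cenpe, the kinetochore motor that moves chromosomes to the spindle middle, had 136, 279, 167 and 109 CPM in NAC 1 to 4, against 61.3 to 169 CPM in saline, with a median of 89.5 CPM. Only NAC 2 lay above the saline range, and the log2 fold change was 0.79 (SE 0.33, edgeR adjusted p = 0.256). It was 0.42 without NAC 2 and 0.27 without NAC 2 and NAC 3.

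The chromosomal passenger complex, which carries Aurkb, has 3 further subunits in the list. Birc5 (survivin) had 104, 97.7, 270 and 171 CPM in NAC 1 to 4, against 117 to 209 CPM in saline, with a median of 193 CPM. Cdca8 (borealin) had 166, 2.03, 151 and 131 CPM in NAC 1 to 4, against 155 to 244 CPM in saline, with a median of 183 CPM, and the NAC 2 value is a single read. For Birc5, NAC 3 lay above and 2 NAC libraries below the saline range, and for Cdca8, NAC 1 lay inside that range and the other 3 below it. Their log2 fold changes were -0.20 (SE 0.31) and -0.74 (SE 0.54), with edgeR adjusted p of 0.781 and 0.512, and without NAC 2 that of Cdca8 was -0.34. Incenp, the scaffold of the complex (0.38, SE 0.36), and the kinetochore protein Cenpf (0.14, SE 0.28) did not pass either.

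Of the 12 spindle and cytokinesis genes, 7 had a negative and 5 a positive fold change, with a median of -0.06, and 3 were lower at an unadjusted p under 0.05. Kpna2 (chromosome 11, 106988629-106999541), an importin alpha that binds spindle assembly factors until Ran releases them, had 119, 319, 255 and 218 CPM in NAC 1 to 4, against 402 to 766 CPM in saline, with a median of 471 CPM. No NAC value reached the saline range. The means were 228 ± 83.8 CPM in NAC and 511 ± 133 CPM in saline, and the log2 fold change was -1.17 (SE 0.31, edgeR adjusted p = 0.0968). Without NAC 2 the edgeR adjusted p was 0.0476. The tables also list Gm10184, whose transcript is 99.9% identical to that of Kpna2 over 1968 bases, so reads could be split between them. Gm10184 had 52 reads in NAC beside 770 of Kpna2, and 287 in saline beside 6258, and adding them left 130 to 342 CPM in NAC and 430 to 806 CPM in saline.

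Fam83d (chromosome 2, 158768093-158786637), which brings casein kinase 1 to the spindle and helps chromosomes align, had 59.4, 73.2, 47.7 and 39.5 CPM in NAC 1 to 4, against 78.9 to 162 CPM in saline, with a median of 104 CPM. The groups did not overlap, although NAC 3 rested on 6 reads, and the log2 fold change was -1.07 (SE 0.31, edgeR adjusted p = 0.12). Kif2c, a kinesin that dismantles microtubules at the centromere, was named after its values were seen. It had 68.6, 34.6, 71.6 and 52.2 CPM in NAC 1 to 4, against 78.2 to 135 CPM in saline, with a median of 96.8 CPM. The separation was narrow, between NAC 3 and saline 4. The NAC 3 value rested on 9 reads, and a single read there corresponds to 7.95 CPM. The log2 fold change of Kif2c was -0.83 (SE 0.30, edgeR adjusted p = 0.204). On the TPM scale and with library size alone the groups overlapped for Kif2c. Tpx2, which activates Aurka on the spindle, had 114, 175, 175 and 135 CPM in NAC 1 to 4, against 90.7 to 232 CPM in saline, with a median of 170 CPM. Prc1, which bundles the microtubules of the midzone, had 85.6, 142, 199 and 82.8 CPM in NAC 1 to 4, against 90.0 to 172 CPM in saline, with a median of 112 CPM. Both overlapped with saline, with log2 fold changes of -0.16 (SE 0.29) and 0.03 (SE 0.31) whose sign turned under some alternatives. The motor Kif20a (-0.67) and the cytokinesis genes Ect2 (-0.07), Kif23 (0.26) and Anln (0.54), together with the spindle genes Kif11 (0.07), Nusap1 (-0.05) and Hmmr (0.60), had edgeR adjusted p from 0.424 to 0.97.

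The remaining 2 members act on mitotic chromosomes themselves, and both had positive fold changes. Mki67 (chromosome 7, 135689784-135716361), the proliferation marker that coats mitotic chromosomes, had 642, 1007, 636 and 480 CPM in NAC 1 to 4, against 237 to 601 CPM in saline, with a median of 350 CPM. NAC 4 lay inside the saline range and the other 3 above it, and the log2 fold change was 0.84 (SE 0.31, edgeR adjusted p = 0.205). Top2a (chromosome 11, 98992943-99024189), the topoisomerase that untangles sister chromatids, had 418, 696, 533 and 406 CPM in NAC 1 to 4, against 219 to 561 CPM in saline, with a median of 509 CPM. NAC 2 alone exceeded the saline range, and the log2 fold change of 0.19 (SE 0.30, edgeR adjusted p = 0.78) was -0.01 without it. Reads of Mki67 over reads of Kpna2 within a library, a ratio chosen after the values were seen, ranged from 2.20 to 5.40 in NAC and from 0.479 to 1.30 in saline. Here too a higher member was set over a lower one, so a difference was built into the choice.

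**Figure D3:**
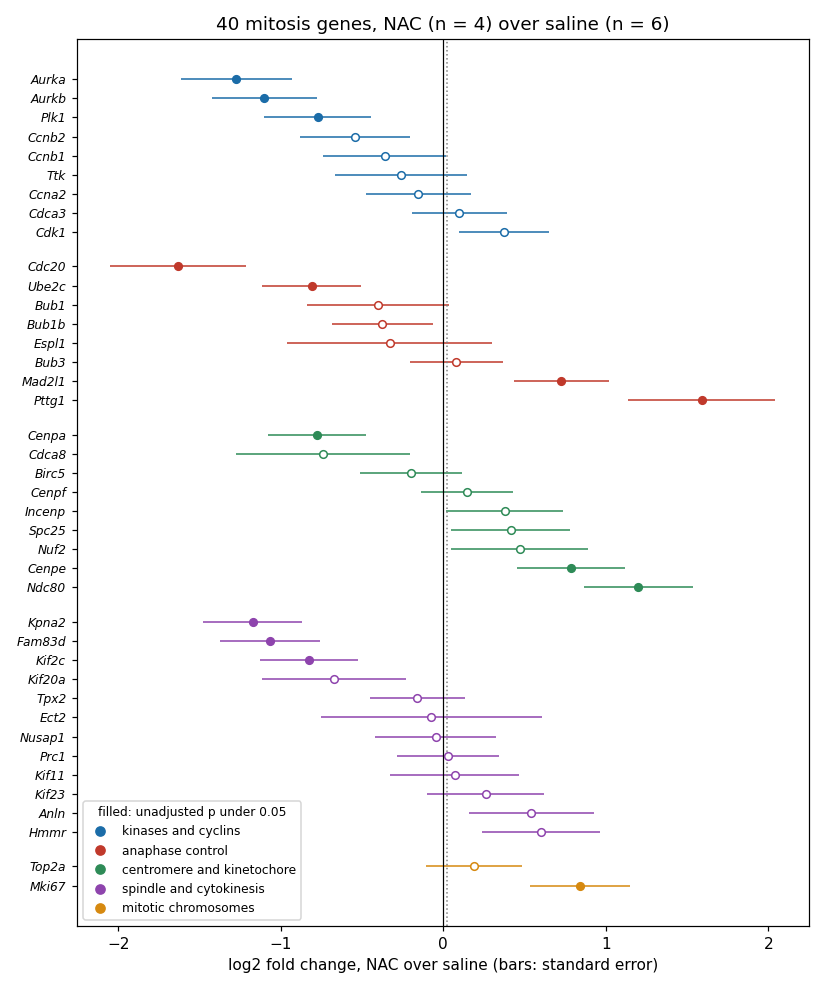
Log2 fold change of each of the 40 members, NAC (n = 4) over saline (n = 6), with its standard error, grouped by role; filled points had an unadjusted edgeR p under 0.05 and the dotted line is the median of all tested genes (0.02). Kinases lie mostly to the left, kinetochore genes mostly to the right, and the anaphase genes span the widest range, between Cdc20 at -1.63 and Pttg1 at 1.59.

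Base composition of the transcripts moved with these fold changes. Across the 40 members, the log2 fold change and the GC content of the longest annotated transcript had a Pearson correlation of -0.53 (Spearman -0.56), and across 10853 annotated tested genes it was -0.39 (Spearman -0.44). These correlations are across genes measured in the same 10 libraries, and genes are not independent replicates. When the annotated genes were split by GC content into 4 bins of equal size, in the lowest bin the median log2 fold change was 0.44 over all genes and 0.14 over its 15 members, and in the highest bin it was -0.41 over all genes and -0.77 over its 5 members. The GC content was 42.4% for Ndc80, 46.0% for Kpna2, 46.7% for Fam83d and 55.6% for Cdc20. With offsets for GC content and length, 30 of the 40 members had a negative fold change, with a median of -0.34 (all genes -0.06), and 8 members turned sign. The 9 lower members kept their sign, and 7 of them still had an unadjusted p under 0.05, all but Plk1 (-0.30) and Ube2c (-0.28). Of the 10947 genes tested, 872 were lower and 585 higher at this p with these offsets. Kpna2 reached -1.41 with an edgeR adjusted p of 0.0443, and Cdc20, Fam83d, Aurka and Aurkb had log2 fold changes of -1.20, -1.18, -1.06 and -0.82. Of the 5 higher members, Pttg1 (1.31) and Ndc80 (0.90) still had an unadjusted p under 0.05, Mki67 and Cenpe were at 0.33 and 0.09, and Mad2l1 was at -0.12. The median of the kinetochore members was -0.08 with these offsets, against 0.38 without them.

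**Figure D4:**
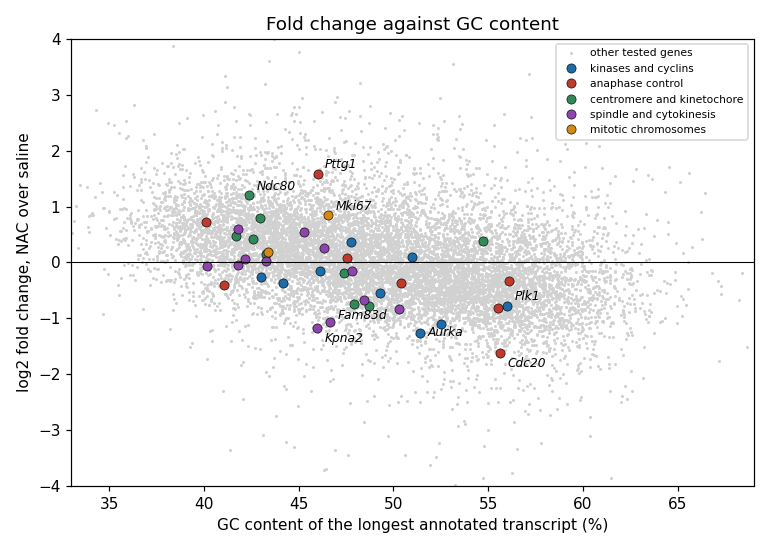
Log2 fold change (NAC over saline) against the GC content of the longest annotated transcript, for the 40 members (coloured by role) and the other tested genes (grey), with the vertical axis limited to a log2 fold change of 4 in either direction. Both sets slope downward to the right, and Kpna2 and Fam83d lie below most genes of their GC content while Pttg1 and Ndc80 lie above.

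The rest of the mitotic machinery was described with lists of other genes of the same pathways, in which edgeR called 0 genes at an adjusted p under 0.05. DESeq2 called 2 of them, Nipbl and Ncaph2. Over all tested genes, 7.86% were higher and 8.33% lower at an unadjusted edgeR p under 0.05, the shares to set beside each list below. Of 16 genes that control mitotic transcription, 1 was higher and none lower at an unadjusted p under 0.05, with a median log2 fold change of -0.02. Among them E2f5, a repressive E2F, was at 1.30 and Tfdp1, the E2F partner, at -0.48. Foxm1, the transcription factor that activates late cell cycle genes, named here for that role and outside the naming rule, had 76.6 ± 32.2 CPM in NAC and 67.2 ± 30.4 CPM in saline. Of 20 other genes of mitotic entry and exit, 0 had an unadjusted p under 0.05 by edgeR, and their median was 0.16. The kinase genes with the smallest p in that list were Mastl (1.01), which restrains the phosphatase that reverses mitosis, and Wee1 (-0.73), which inhibits Cdk1.

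Of 26 other genes of the anaphase-promoting complex and its checkpoint, 3 were lower and 0 higher at an unadjusted p under 0.05, but with library size alone 1 was lower and 3 higher. Over all tested genes, 8.33% were lower and 7.86% higher, and with library size alone 500 of 10947 were lower and 1236 higher. Mad2l1bp, which helps switch the checkpoint off by acting on Mad2, had 11.3 ± 6.55 CPM in NAC and 34.8 ± 12.8 CPM in saline, without overlap. Counting error limits this separation, since 3 reads in NAC 3 equal 23.9 CPM and the lowest saline value was 21.6 CPM. Anapc5, a scaffold subunit of the complex, had 272 ± 116 CPM in NAC and 495 ± 118 CPM in saline. Of 30 other kinetochore genes, 4 were higher and 0 lower, with a median of 0.25, among them Cenpk (1.48), of the inner kinetochore. With offsets for GC content and length 1 was higher and 1 lower, with a median of 0.04, and without NAC 2 and NAC 3 2 were higher. Of 28 other spindle and cytokinesis genes tested of 29 listed, 1 was higher and 2 lower, against 3 higher and 1 lower with library size alone. Those lower were Ran and Gtse1. Ran, which releases cargo from Kpna2 near chromosomes, had 654 ± 195 CPM in NAC and 1034 ± 127 CPM in saline. Gtse1 had 18.6 ± 11.2 CPM in NAC and 41.9 ± 6.57 CPM in saline. Neither gene overlapped between groups, but the lowest NAC value of Gtse1, 6.10 CPM, is the level of 3 reads in NAC 2.

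The condensin and cohesin list, whose rings shape and hold sister chromatids, had 7 of 19 higher and 1 lower, with a median of 0.56. Over all tested genes, 7.86% were higher and 8.33% lower at the same unadjusted p. Nipbl, the cohesin loader, had 250 ± 71.3 CPM in NAC and 121 ± 18.1 CPM in saline (log2 fold change 1.04, edgeR adjusted p = 0.0931). Ncaph2, a condensin II subunit, had 136 ± 31.0 CPM in NAC and 305 ± 60.0 CPM in saline (-1.12, edgeR adjusted p = 0.0792), and neither gene overlapped between groups. The list's median transcript GC content was 43.2%, against 49.4% over all tested genes. With offsets for GC content and length its median was 0.09, with 1 higher and 1 lower.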

How the data were processed

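Libraries were built from polyadenylated RNA of the captured cells with GEO-seq, a low-input protocol, per the labels. The authors deposited a gene table per library holding estimated counts and TPM. The submitters' processing notes name Salmon and GRCm38; its version and strand setting are not given in the sources read. Estimated counts were rounded to whole numbers. Rows without a gene symbol (0.496% to 0.638% of reads) were left out. The 10947 genes kept by the default filter were compared by edgeR 4.0.16 quasi-likelihood fits (R 4.3.3, TMM factors, robust estimation), with Benjamini-Hochberg adjustment over all of them and a threshold of 0.05. CPM are scaled with the TMM factors. The deposited TPM served to order levels between genes and for limma 3.58.1 on log2(TPM + 1) and log2(TPM + 0.1). Alternatives were RLE factors, library size alone, DESeq2 1.42.0, non-robust estimation, skipping the filter or requiring 10 CPM in 4 libraries, leaving out each library, NAC 2 with NAC 3 or saline 2 with saline 4, a block for the replicate number, thinning all libraries to 115726 reads, an oocyte score as a covariate, and GC and length offsets. Counts at an unadjusted p, and the leave-one-out values of the summed level, were added to the alternatives after seeing the data.

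The members and lists were chosen with earlier results of these data known. Each NAC value and the saline range and median are given for the 3 members with the highest mean CPM and the 2 with the smallest p in each role (19 members); Plk1, Mad2l1, Cenpe and Kif2c, also at an unadjusted p under 0.05, were added after their values were seen; each pathway list names the 2 genes with the smallest p, of which 1 value is not reported here. No library pair agreed within counting noise. The limit of 3 reads covers counting error only, since reads were amplified and not counted as molecules. Gene positions and the composition and length of transcripts were read from GENCODE for GRCm38, and similar sequences from blastn 2.17.0 (at least 95% identity over 100 bases). Reads of opposite-strand neighbours cannot be told apart for Cdc20, Ube2c, Cdca8, Ccna2, Prc1, Nusap1 and Kif20a, whose exons overlap those of Elovl1, Tnnc2, 9930104L06Rik, Exosc9, Rccd1, Oip5 and Cdc23.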

Additional observations from a re-analysis of the deposited data

Results flagged for a closer look

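Of 82 groups of 4 or 6 libraries examined (40 members and their sum in each treatment group), 5 held a library far from the rest, where chance gives about 1 in 20. Ccnb2 was at 357.9 CPM in NAC 3, against 97.6 to 134 CPM in the other NAC libraries. In NAC 2, Mad2l1 was at 250.2 CPM, against 96.5 to 119 CPM in the other NAC libraries. Bub3 was at 482.2 CPM in the same library, against 185 to 235 CPM. In saline 6, Kif20a was at 171.1 CPM, against 40.01 to 83.02 CPM in the other saline libraries, and Kpna2 was at 766.2 CPM, against 402 to 529 CPM.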

How the results depend on the processing

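Over the 24 alternatives, the median log2 fold change of the 40 members stayed between -0.34 and 0.03, and without single libraries between -0.28 and -0.04. The summed level, recomputed under 13 alternatives, stayed between -0.23 and 0.01 on the log2 scale, and without single libraries between -0.23 and -0.06. The count of genes called, 8 as reported, was 433 with DESeq2, 226 with no low-count filter, 31 after thinning, 16 with GC and length offsets, 45 without saline 2 and 4, 2 without NAC 2 and 3, 1 with the oocyte covariate and 1 to 58 without single libraries. The count of members called, 0 as reported, was 7 with DESeq2, 3 with no low-count filter (Cdc20, Pttg1 and Kpna2), 1 after thinning (Cdc20), with GC and length offsets (Kpna2) or without saline 2 and 4 (Pttg1), and 0 to 1 without single libraries. Other pathway genes called numbered 2 with DESeq2 and 1 with no low-count filter (Ncaph2).

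The replicate number as a block left 1 gene called over all tested genes, and no member. Deviations of same-numbered libraries correlated at -0.01 to 0.20 over 4 pairs, and 1 of 4 NAC libraries correlated best with its own number. The value of 0.20, for NAC 4 with saline 4, was the highest of any NAC and saline pair. So few pairs cannot settle whether the numbers pair libraries. Of the 19 members with full values by the naming rule, 12 kept their sign in every alternative and 7 did not, and the cause was not tested. Prc1 was at -0.0089 with no filter, -0.53 without NAC 2 and 3, -0.13 without saline 2 and 4, -0.039 after thinning, -0.36 with GC and length offsets and -0.28 to 0.10 without single libraries. Bub3 was at -0.36, and Top2a at -0.16, without NAC 2 and 3; with GC and length offsets they were at -0.11 and -0.31, and without single libraries at -0.34 to 0.16 and -0.016 to 0.26. Cdk1 was at -0.020 without NAC 2 and 3. Tpx2 was at 0.085 with the block, 0.043 after thinning and 0.14 with the oocyte covariate. After thinning, Ccna2 was at 0.15 and Birc5 at 0.22. Among the 14 members with an unadjusted p under 0.05, only Mad2l1 turned sign, with GC and length offsets. Depth limits NAC 3 most, where 3 reads equal 23.9 CPM, and 10 members were not tested after thinning.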
